A study of Homo sapiens with 4 samples.

Results

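The 37 DNA replication genes described here are the rows of the gene tables that carry the symbols of a fixed list, out of 33538 genes in all, and every one of the 37 was found once. They fall into 8 groups by role: the sliding clamp and its loader, origin licensing, the MCM2-7 helicase, helicase activation, polymerases and primase, RPA and lagging-strand enzymes, nucleotide supply, and proteins of the fork and its chromatin. Their levels were followed over all cells and within the cells in which messages of PCNA and TYMS were detected together. Of the 37, 26 had a mean of at least 10 CPM (counts scaled to the same total in every library) over the 4 libraries, and the other 11 are low, which widens their intervals.

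The data are single-cell RNA sequencing counts from LNCaP, an androgen-sensitive cell line from a human prostate cancer metastasis, and from lines derived from it. LNCaP cells had been kept in the solvent DMSO (0.1%, 48 h) or in 10 µM of enzalutamide (ENZ), an antiandrogen drug, for 48 h (LNCaP-ENZ48). RES-A and RES-B are ENZ-resistant lines obtained from LNCaP by prolonged exposure to ENZ (RES-A) or to the related antiandrogen RD-162 (RES-B), and both were maintained in 10 µM ENZ, so that these 2 lines carry continuous drug as well as a history of selection. Each group is 1 library of sorted living cells, so the spread between cultures is not known, no test could be made, and library and condition cannot be told apart. Ratios are given on the log2 scale with 95% intervals (in brackets) that cover counting error only.

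The kept cells numbered 1782 in LNCaP and 4061 to 4569 in the other libraries (14727 in all), with 50208831 to 60838227 UMIs (unique molecular identifiers, each 1 captured RNA molecule) per library. LNCaP cells were deeper, with a median of 27079.5 UMIs against 12138 to 13676. The limits for a kept cell were 16000 to 50000 UMIs there and 5000 to 25000 elsewhere. Under limits common to all libraries (5000 to 50000 UMIs), LNCaP kept 1957 cells in place of 1782. How far the limits made the depth differ was not tested. Of 17233 barcodes, 35 occurred in more than 1 library. Doublets had not been removed. FOLH1, KRT8 and KRT18, which mark luminal prostate cells of this line, were present in every library, whereas the androgen-induced gene KLK3 had 717.8 CPM in LNCaP and 2 UMIs in all in RES-A. Of 5 markers of other cell types, PTPRC and KRT5 were at 0 in all libraries, which allows up to 3 UMIs in each, PECAM1 and HBB had at most 3 UMIs, and COL1A1 had 83 to 181 UMIs.

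A cell copies its genome in S phase. In G1 the origin recognition complex (ORC1, ORC6), CDC6 and CDT1 load the MCM2-7 ring onto origins. CDC45, the GINS complex and MCM10 then turn the ring into a moving helicase, behind which polymerases work on DNA held by the clamp PCNA. Many of these genes are induced together at the G1 to S boundary by transcription factors of the E2F family, and their messages are a common readout of how many cells of a population are replicating.

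The promoters of several members show the letters through which E2F factors are known to act, and they are shown because they are a shared feature that played no part in the choice of the genes, which lie on 19 chromosomes. RefSeq promoter windows (GRCh38.p14, 250 bases before to 50 after each start) were found for 31 of the 37. The 8-letter E2F motifs searched were TTTGGCGC, TTTCGCGC, TTTCCCGC and TTTGCCGC, on both strands. At least 1 was present in 19 of 31 members (61.3%), against 3.99% of all 27305 genes with such a window. In 6 members 2 or more matches were found, where overlapping matches count separately and no share of all genes was taken. At least 1 match was present in 11 of 35 further replication genes (31.4%) and in 2 of 16 G2/M genes, which serve mitosis (12.5%), with a window. Each line below is 100 bases on the strand of the gene, with capitals on the E2F motif, except in TK1, whose window holds no such letters and where capitals mark CCAAT or its reverse complement. PCNA (chr20:5126623-5126722, minus strand) holds 1 match that starts 59 bases before the start site, TYMS (chr18:657553-657652, plus strand) 1 at 39 bases, HELLS (chr10:94545688-94545787, plus strand) 2 at 76 and 8 bases, and GINS2 (chr16:85688955-85689054, minus strand) 1 at 31 bases. MCM6 (chr2:135876514-135876613, minus strand) holds 2 copies of a 12-letter block, each of 2 overlapping matches, and its window runs from 170 to 71 bases before the start, while all other windows end at the start. TK1 is at chr17:78187053-78187152, minus strand.
PCNA: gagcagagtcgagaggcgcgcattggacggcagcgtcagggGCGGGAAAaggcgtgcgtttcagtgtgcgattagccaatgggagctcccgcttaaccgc
TYMS: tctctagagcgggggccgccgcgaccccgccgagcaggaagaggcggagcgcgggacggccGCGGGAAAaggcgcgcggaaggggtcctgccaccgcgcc
MCM6: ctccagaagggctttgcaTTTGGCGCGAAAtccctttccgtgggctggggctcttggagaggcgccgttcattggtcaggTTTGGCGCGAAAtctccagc
HELLS: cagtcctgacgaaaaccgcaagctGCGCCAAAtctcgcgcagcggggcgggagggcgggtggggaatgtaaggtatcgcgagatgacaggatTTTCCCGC
GINS2: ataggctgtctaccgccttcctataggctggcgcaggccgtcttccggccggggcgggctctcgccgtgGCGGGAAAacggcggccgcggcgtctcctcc
TK1: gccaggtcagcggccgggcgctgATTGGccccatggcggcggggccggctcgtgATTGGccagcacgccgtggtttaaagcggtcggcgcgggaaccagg
CCAAT was present in 19 of the 31 members (61.3%) and in 39.7% of all genes, in 20 of the 35 further replication genes (57.1%) and in 15 of the 16 G2/M genes (93.8%). The CHR element TTTGAA, known from promoters of genes used late in the cell cycle, was present in 2 of 31 members (6.45%), in 18.2% of all genes, in 4 of the 35 further replication genes and in 11 of the 16 G2/M genes. A match is a description of letters and says nothing of binding in these cells.

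The replication genes as a whole were lowest after 48 h of ENZ and highest in RES-A. Their summed level was 633.5 CPM in LNCaP-ENZ48, 848.0 in LNCaP, 927.4 in RES-B and 1208 in RES-A. By gene, 35 of 37 members were lowest in LNCaP-ENZ48, against 35.2% of all 7460 expressed genes (mean of at least 10 CPM), and the exceptions were RFC3 and RRM1, lowest in RES-A. RES-A held the highest level of 29 members, against 26.9% of all expressed genes. LNCaP was highest for RFC3, RRM1, TYMS and ATAD2, against 22.6% of all expressed genes. RES-B was highest for CDC6, POLA1, POLE and RPA2, against 39.8%, and LNCaP-ENZ48 for 0 members, against 10.8%. In bulk terms, more replicating cells and more message per replicating cell cannot be told apart from these sums.

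**Figure D1:**
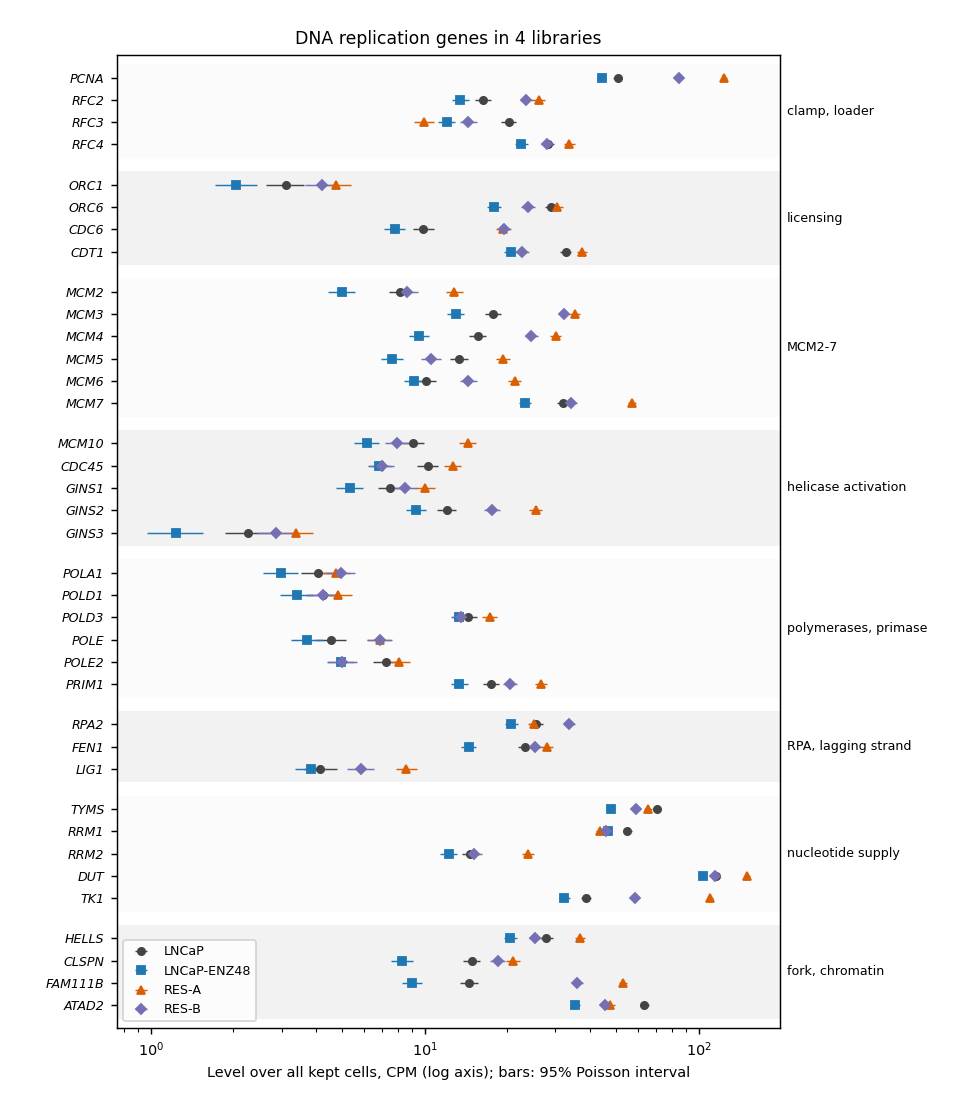
Level of each of the 37 replication genes over all kept cells of each library, in CPM on a log axis, with genes grouped by role and bars for the 95% Poisson interval. The squares (LNCaP-ENZ48) are leftmost for 35 genes and the triangles (RES-A) rightmost for 29.

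Against LNCaP, 48 h of ENZ went with a lower level of all 37 members. The median log2 ratio was -0.45 (range -0.88 to -0.11), where the median of all expressed genes was -0.07. At a log2 ratio of 0.5 or more, 0 members were higher and 16 lower, and of all expressed genes 1.47% were higher and 4.89% lower by as much. The interval lay below 0 for 34 members and held 0 for 3. Intervals were counted for members only, here and below, so these counts cannot be set against all genes. Fork and chromatin genes had the lowest median (-0.76), followed by origin licensing (-0.63), MCM2-7 (-0.59) and helicase activation (-0.56), whereas nucleotide supply (-0.26) was closest to the other genes.

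RES-A showed the opposite direction. The median was 0.53 (all expressed genes 0.02), 32 members were above 0, and 20 were higher and 1 lower by 0.5, beside 14.6% and 14.7% of all expressed genes. MCM2-7 had the highest median (0.89) and all 6 subunits were higher by at least 0.5. In RES-B the median of 0.12 was that of all expressed genes (0.11), with 10 members higher and 3 lower, beside 18.6% and 10.6%. RES-B as a whole thus did not stand apart from LNCaP, although single members did. Under TMM or median-of-ratios scaling 5 members were higher and 5 lower, counts for which no share of all expressed genes was taken. Set directly against RES-A, RES-B had a median of -0.35 (all expressed genes 0.09), with 1 member higher and 15 lower, beside 16.0% and 7.8%. The comparisons against LNCaP share that library.

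**Figure D2:**
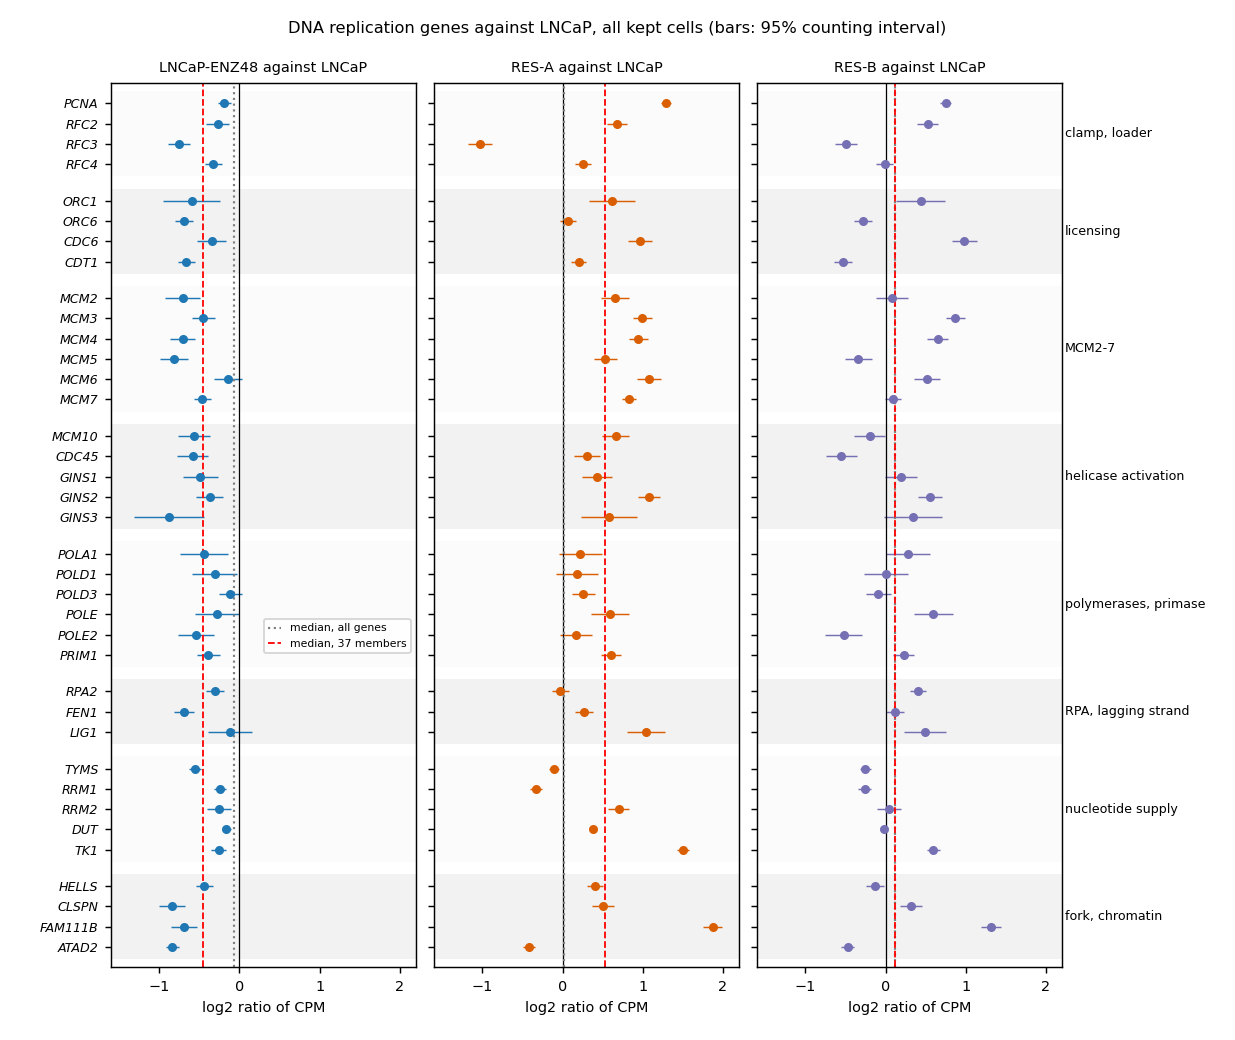
Log2 ratio of CPM of each replication gene against LNCaP, 1 panel per library, with 95% counting intervals, the median of the 37 members (dashed) and the median of all expressed genes (dotted). All 37 points lie below 0 in LNCaP-ENZ48, 32 lie above 0 in RES-A, and for RES-B the medians of 0.12 and 0.11 coincide.

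PCNA, the ring that holds polymerases on DNA, had 50.6 CPM in LNCaP and 44.3 in LNCaP-ENZ48, against 123.4 in RES-A and 84.9 in RES-B. Both resistant lines were thus above both LNCaP libraries, by 1.29 [1.22, 1.35] in RES-A and 0.75 [0.68, 0.82] in RES-B, whereas the ENZ48 difference was small (-0.19 [-0.27, -0.11]). RFC3, a subunit of the loader that opens the ring, ran the other way with 20.2 in LNCaP but 12.0 in LNCaP-ENZ48, 14.4 in RES-B and 9.92 in RES-A. Its ratio in RES-A was -1.03 [-1.18, -0.88], the lowest of all members in that comparison. The 50 nearest expressed genes on chromosome 13 had a median of -0.21 there, relative to all genes. Neighbour values here and below have the median of all expressed genes (0.02 in RES-A, 0.11 in RES-B) subtracted, whereas ratios of members do not. The other loader subunits differed from it: RFC2 was higher in RES-A (0.67) and RES-B (0.53), and RFC4 was 0.26 and -0.01.

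Among the licensing genes, CDC6, which brings the MCM ring to the origin, had the highest ratio in both lines, with 9.88 in LNCaP and 7.76 in LNCaP-ENZ48 against 19.3 in RES-A and 19.5 in RES-B. Both lines were about equally above LNCaP, at 0.96 [0.81, 1.12] and 0.98 [0.82, 1.14]. CDT1, its partner in loading, separated the lines, with 32.7, 20.6, 37.6 and 22.6 in the same order of libraries, which is kept from here on. It was 0.20 [0.11, 0.30] in RES-A and -0.53 [-0.64, -0.42] in RES-B, where its level was close to that in LNCaP-ENZ48. ORC6 had 29.0, 17.9, 30.4 and 23.8, with its largest difference after 48 h of ENZ (-0.69 [-0.81, -0.58]). ORC1, at 2.05 to 4.76, had ratios of -0.60, 0.62 and 0.44.

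The 6 MCM2-7 subunits form 1 ring but did not share 1 ratio. MCM6 had 10.1, 9.17, 21.3 and 14.4 CPM, and after ENZ its interval held 0 (-0.14 [-0.31, 0.04]). In RES-A it was the highest of the ring (1.08 [0.92, 1.23]). MCM5 had 13.4, 7.61, 19.3 and 10.6, with -0.81 [-0.99, -0.64] after ENZ, the lowest of the ring. In RES-B MCM5 was -0.34 [-0.51, -0.18]. Its 50 neighbours on chromosome 22 had a median of -0.45 relative to that of all expressed genes (0.11), so MCM5 was close to them. MCM3 had 17.7, 13.0, 35.3 and 32.4, and was higher by 1.00 [0.88, 1.11] in RES-A and 0.87 [0.75, 0.99] in RES-B. Its neighbours on chromosome 6 were higher as well, by 0.39 and 0.70, so the RES-B ratio of MCM3 was close to that of its surroundings. MCM4 differed from its own: it was 0.65 [0.52, 0.78] in RES-B while its neighbours were at -0.68. MCM2 and MCM7 were 0.66 and 0.83 in RES-A and 0.08 and 0.10 in RES-B. Whether gene copy number takes part in these ratios was not tested.

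Of the helicase activators, GINS2, a subunit of the GINS complex, had 12.0, 9.32, 25.4 and 17.6 CPM. It was 1.08 [0.94, 1.22] in RES-A and 0.55 [0.40, 0.70] in RES-B. CDC45, which travels with GINS and the MCM ring, had 10.2, 6.82, 12.6 and 6.98. In RES-B it was thus at the level of LNCaP-ENZ48 and below LNCaP (-0.55 [-0.75, -0.36]), and its neighbours on chromosome 22 were at -0.38. GINS3, another GINS subunit, had 2.27, 1.23, 3.38 and 2.87, with -0.88 [-1.32, -0.45] after ENZ from 114 and 75 UMIs. MCM10, which is needed to start unwinding, was 0.66 in RES-A and -0.20 in RES-B, and GINS1 was 0.43 and 0.19.

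Polymerase and primase genes had the lowest median of the 8 groups in RES-A (0.24). PRIM1, the catalytic subunit of primase, was the highest of them there, with 17.5, 13.4, 26.6 and 20.4 and a ratio of 0.60 [0.48, 0.73]. POLE, the catalytic subunit of the leading-strand polymerase, had 4.54, 3.73, 6.84 and 6.87, so that RES-A and RES-B did not differ (0.01 [-0.20, 0.22]) beyond that interval. POLE2, its second subunit, did not follow it, with 7.19, 4.95, 8.07 and 5.00 and a RES-B ratio of -0.52 [-0.76, -0.29]. POLD3, an accessory subunit of polymerase delta, had 14.4, 13.3, 17.3 and 13.5 and was among the 3 members whose interval held 0 after ENZ (-0.11 [-0.26, 0.03]). POLA1, the polymerase that extends primers, and POLD1, the catalytic subunit of polymerase delta, had 2.99 to 4.93 CPM, and in RES-A both intervals held 0.

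LIG1, the ligase that seals lagging-strand fragments, had 4.16, 3.85, 8.56 and 5.84, with 1.04 [0.80, 1.28] in RES-A. FEN1, which trims those fragments, had 23.3, 14.4, 28.0 and 25.3 and differed most after ENZ (-0.69 [-0.82, -0.56]). RPA2, a subunit of the complex that covers single-stranded DNA, was 1 of the 4 members highest in RES-B, with 25.5, 20.7, 25.0 and 33.7. Its RES-B ratio was 0.40 [0.30, 0.51]. Its neighbours on chromosome 1 had a median of 0.33 relative to that of all expressed genes (0.11), so RPA2 was not above them.

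The nucleotide supply genes split. TK1, thymidine kinase of the salvage route, had 38.8, 32.4, 109.6 and 58.5 CPM, and stood 1.50 [1.42, 1.57] above LNCaP in RES-A and 0.59 [0.51, 0.68] in RES-B. TYMS, which makes thymidylate by the other route, was highest in LNCaP, with 70.3, 47.8, 65.3 and 58.9. Its ratios were -0.56 [-0.63, -0.48] after ENZ, -0.11 [-0.17, -0.04] in RES-A, where its neighbours on chromosome 18 were at -0.42, and -0.25 [-0.32, -0.18] in RES-B. The large subunit of ribonucleotide reductase, RRM1, had 54.9, 46.5, 43.7 and 45.7 and was lower in all 3 comparisons, by 0.33 in RES-A at most, beside -0.31 for its neighbours on chromosome 11. The small subunit RRM2 was higher in RES-A (0.70) and 0.04 in RES-B. DUT, which removes dUTP, had 116.0, 103.6, 150.5 and 114.4, and its RES-A ratio of 0.38 [0.33, 0.42] stood beside -0.50 for its neighbours on chromosome 15.

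FAM111B, a protease linked to replication, showed the largest ratios of all members, with 14.5, 8.99, 53.0 and 36.1 CPM. That is 1.87 [1.75, 1.99] in RES-A and 1.32 [1.19, 1.44] in RES-B, in opposition to the ENZ48 value of -0.69 [-0.85, -0.53]. ATAD2, a chromatin ATPase, was highest in LNCaP, with 63.4, 35.4, 47.6 and 45.7. It was below LNCaP in all 3 comparisons (-0.84 [-0.92, -0.76], -0.41 [-0.49, -0.34] and -0.47 [-0.55, -0.40]). CLSPN, which relays the replication checkpoint, had 14.8, 8.27, 21.0 and 18.5 and the same ratio as ATAD2 after ENZ (-0.84 [-1.01, -0.68]), but was higher in RES-A (0.50). HELLS, a chromatin remodeller, had 27.8, 20.5, 36.8 and 25.4, with -0.44, 0.40 and -0.13.

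Other genes of the pathway had medians of the same sign as the members, as had all expressed genes (-0.07, 0.02 and 0.11). Over 42 further replication genes the medians against LNCaP were -0.35 after ENZ, 0.25 in RES-A and 0.20 in RES-B. After ENZ 0 were higher and 11 lower by 0.5, beside 1.47% and 4.89% of all expressed genes. In RES-A 14 were higher and 2 lower, beside 14.6% and 14.7%. In RES-B 9 were higher and 4 lower, which is near the 18.6% and 10.6% of all expressed genes. The extremes were POLD4 (0.24 [-0.18, 0.67]) and DBF4 (-1.07) after ENZ, TIMELESS (1.00) and CHTF18 (-0.80) in RES-A, and GMNN (1.07) and CHTF18 (-1.29) in RES-B. Over 20 G2/M genes the median after ENZ was lower still, at -0.61 with 17 lower by 0.5, beside 4.89% of all expressed genes. In RES-A it was -0.07, with 1 higher and 2 lower, beside 14.6% and 14.7%. In RES-B it was -0.13, with 0 higher and 3 lower, beside 18.6% and 10.6%. In RES-A the replication genes (0.53) and the mitotic genes (-0.07) thus had different medians, with the exception of CDK1 (1.61) among the latter.

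To describe the cells that carried these messages, each cell was reduced to 5000 randomly drawn UMIs (thinning), and cells with at least 1 UMI of PCNA and of TYMS were selected. They were 123 of 1782 LNCaP cells (6.90% [5.77, 8.18]), 190 of 4315 LNCaP-ENZ48 cells (4.40% [3.81, 5.06]), 551 of 4569 RES-A cells (12.1% [11.1, 13.0]) and 343 of 4061 RES-B cells (8.45% [7.61, 9.34], exact binomial intervals). RES-A was above and LNCaP-ENZ48 below every other library, while LNCaP and RES-B had overlapping intervals. The difference between LNCaP-ENZ48 and LNCaP was not detectable at 2000 UMIs per cell (1.18% [0.88, 1.55] and 1.40% [0.91, 2.06]) or with at least 2 UMIs of each gene (0.857% and 0.898%). The order followed PCNA (21.1%, 18.0%, 35.7% and 28.8% of cells) more than TYMS (21.5%, 15.6%, 21.3% and 16.3%). Without thinning the shares were 37.2%, 14.6%, 28.4% and 19.5%, which puts the deepest library first. Within each library the thinned share was also higher in cells with more UMIs, from 4.04% in the lowest 25% of LNCaP cells by UMIs to 12.1% in the highest, and from 2.95% to 18.2% in RES-B. Under limits common to all libraries (1500 to 7000 genes, 5000 to 50000 UMIs, mitochondrial share under 20%), the LNCaP share was 6.64% [5.58, 7.84]. No class of cells here should lack either gene, so a background share from free RNA could not be given.

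**Figure D3:**
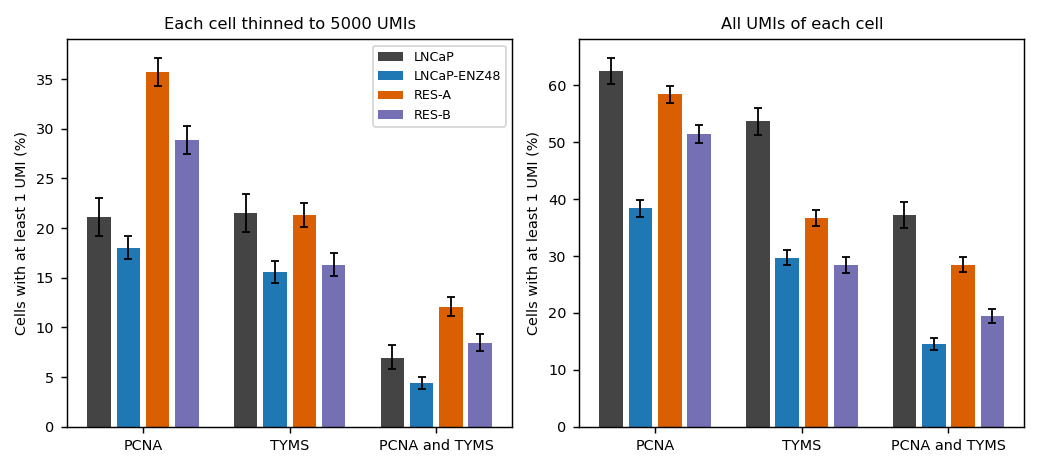
Percent of kept cells with at least 1 UMI of PCNA, of TYMS and of both, per library, after thinning each cell to 5000 UMIs (left) and with all UMIs (right), with exact binomial 95% intervals. For both genes together RES-A is highest after thinning (12.1%) and LNCaP without it (37.2%).

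Cells selected by these genes had higher levels of most other replication genes. PCNA and TYMS chose the cells and are left out of what follows. Over the remaining 35 members, the median log2 ratio of cells with both messages to cells with neither was 2.36 in RES-A, 2.42 in LNCaP, 2.58 in RES-B and 2.84 in LNCaP-ENZ48. In each library 34 of 35 members were higher by at least 1, beside 3.67% of all expressed genes in LNCaP, 4.3% after ENZ, 3.71% in RES-A and 3.99% in RES-B. POLE was the exception in every library, at 0.26 to 0.60. CLSPN (3.79 to 5.02) and MCM10 (3.50 to 5.09) were among the 3 highest of the 35 in each library, joined by FAM111B in LNCaP and LNCaP-ENZ48 (4.16 and 5.37) and by CDC45 in the resistant lines (3.54 and 3.98). Ribonucleotide reductase RRM2 (3.13 to 4.14) followed closely. RPA2 (1.31 to 1.70) was among the 3 lowest in each library. FAM111B was less concentrated in RES-A (2.93) and RES-B (3.14) than in LNCaP (4.16), its level in cells with neither message being raised by 2.21 and 1.91. The 42 further replication genes were enriched to a smaller extent, with medians of 1.28 to 1.71, 25 to 29 of them higher by at least 1, and 2 below 0 in each library. All 20 G2/M genes were also higher by at least 1 in the selected cells of each library (medians 2.02 to 2.57). In LNCaP the selected cells had a median of 30400 UMIs and cells with neither 26267, and the part of doublets in this was not tested.

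**Figure D4:**
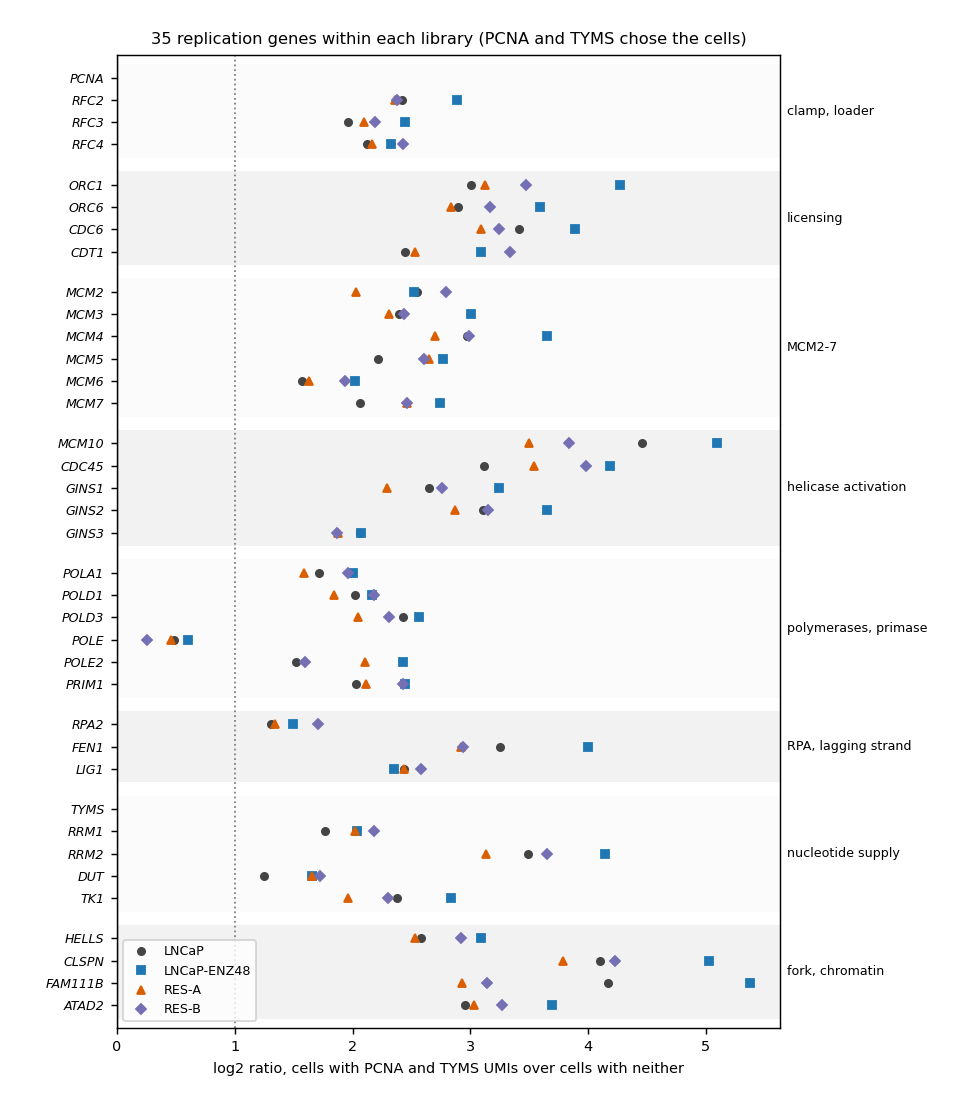
Log2 ratio of CPM in cells with PCNA and TYMS messages over cells with neither, for 35 replication genes in each library (markers), with the dotted line at 1. Every gene but POLE lies beyond the line in all 4 libraries, and MCM10, CLSPN and FAM111B reach the highest values, in LNCaP-ENZ48 (squares).

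Cells with both messages held a larger share of the replication message than of cells, but most of that message lay outside them. They held 22.6% of the UMIs of the 35 members in LNCaP and 20.9% in LNCaP-ENZ48, but 32.6% in RES-B and 33.1% in RES-A. Cells with neither message held 37.2% in LNCaP, 44.5% in LNCaP-ENZ48, 34.1% in RES-B and 26.7% in RES-A. The summed level of the 35 members was 2142 to 2555 CPM in cells with both and 342.6 to 508.6 in cells with neither. Cells with TYMS alone (933.0 to 1255) were above cells with PCNA alone in each library (607.6 to 1230), but in RES-A the order turned with another draw of the thinning (1128 for TYMS alone and 1196 for PCNA alone) and with at least 2 UMIs of each gene (2035 and 2326). Cells with TYMS alone held 2289 to 3429 CPM of the 20 G2/M genes against 636.6 to 1300 in cells with PCNA alone. The selection was incomplete at 5000 UMIs: 10 or more of the 35 members were detected in 34.1% to 46.1% of the selected cells and in 0.360% to 1.47% of cells with neither. Over all cells that share was 3.45% [2.93, 4.04] in LNCaP-ENZ48, 4.88% [3.93, 5.99] in LNCaP, 6.57% [5.83, 7.38] in RES-B and 11.2% [10.3, 12.2] in RES-A, the same order as that of the selected cells.

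Within the selected cells the replication genes had no consistent difference after 48 h of ENZ, whereas in cells with neither message they were lower. The median over the 35 members was -0.45 in all cells, 0.10 in selected cells (all genes -0.03) and -0.44 in cells with neither. In selected cells 1 member was higher by 0.5 (RRM2, 0.59 [0.31, 0.86]) and 2 lower (MCM2, -0.60 [-1.10, -0.12], and GINS3, -0.80 [-1.97, 0.27]), beside 3.67% and 7.47% of all genes, and 30 of 35 intervals held 0. Over 20 further draws RRM2 had a median of 0.33 (0.01 to 0.58) and MCM2 of -0.28 (-0.69 to 0.01), both short of 0.5, and GINS3 of -0.65. With only 123 LNCaP cells selected, the draw of the thinning mattered: in these draws the selected-cell median ran from -0.13 to 0.18, above 0 in 9, and the median in cells with neither from -0.57 to -0.39.

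In RES-A the median was 0.53 in all cells, 0.20 in selected cells (all genes -0.01) and 0.25 in cells with neither. The 20 further draws gave -0.04 to 0.37 in selected cells. In cells with neither they gave -0.002 to 0.43, with a median of 0.17. Of the 35, 9 were higher and 2 lower by 0.5 in selected cells, beside 15.3% and 17.7% of all genes. TK1 (1.18 [1.02, 1.33]), FAM111B (0.97 [0.79, 1.16]), MCM7 (0.77 [0.59, 0.96]), MCM6 (0.77 [0.44, 1.12]) and GINS2 (0.77 [0.51, 1.03]) remained above LNCaP, and RFC3 (-1.14 [-1.44, -0.84]) and ATAD2 (-0.71 [-0.84, -0.58]) below. All 6 MCM2-7 subunits were above 0 (0.13 to 0.77). The directions of these genes held in all 20 draws, except that of MCM2, which was above 0 in 17 (-0.10 to 0.44).

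In RES-B the selected cells were above LNCaP more than all cells were, with medians of 0.30 (all genes 0.10) and 0.12. Here 11 members were higher by 0.5 and 0 lower, beside 19.8% and 12.0% of all genes, led by FAM111B (0.89 [0.70, 1.09]), CDC6 (0.84 [0.58, 1.11]) and MCM3 (0.81 [0.58, 1.04]). The draws gave 0.10 to 0.52, all 20 above 0. In cells with neither the median was 0.18 in the draw used and -0.13 to 0.09 in the 20 further draws, so that no direction can be read there. Against RES-A, the selected cells of RES-B had a median of 0.05 (all genes 0.11), where all cells had -0.35, and the draws gave -0.01 to 0.20, with 2 members higher and 3 lower, beside 18.7% and 8.84%. RPA2 (0.76 [0.56, 0.97]) and RFC3 (0.80 [0.51, 1.10]) were the members higher in RES-B, and POLE2 (-0.76 [-1.21, -0.33]), MCM5 (-0.59 [-0.86, -0.33]) and TK1 (-0.51 [-0.62, -0.39]) those lower. MCM5 and TK1 had medians of -0.42 and -0.48 over the draws, short of that limit.

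**Figure D5:**
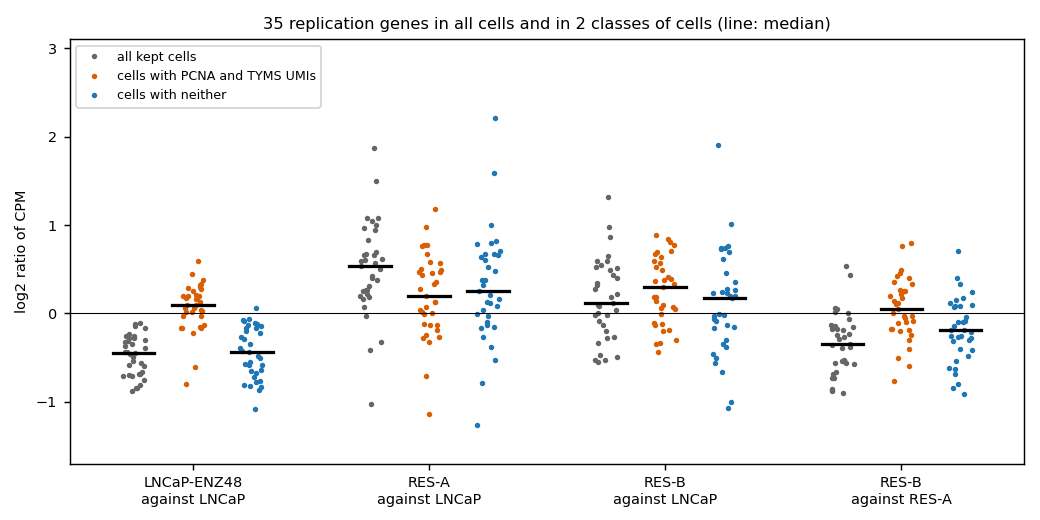
Log2 ratio of 35 replication genes (points) in 4 comparisons, over all kept cells, in cells with PCNA and TYMS messages and in cells with neither, with a line at each median. For LNCaP-ENZ48 against LNCaP the medians are -0.45, 0.10 and -0.44, and for RES-B against RES-A they are -0.35, 0.05 and -0.19.

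The all-cell difference can also be written as a sum over 4 classes of cells (both messages, PCNA alone, TYMS alone, neither). The class shares in it are shares of UMIs, not of cells: cells with both messages were 6.90% of LNCaP cells and held 7.68% of LNCaP UMIs. The 35 members together stood at -0.43 in LNCaP-ENZ48 against LNCaP. With the class shares of LNCaP-ENZ48 and the class levels of LNCaP the value was -0.17, and with the shares of LNCaP and the levels of LNCaP-ENZ48 it was -0.22. For RES-A the values were 0.49 in all, 0.15 from the shares and 0.27 from the levels. For RES-B against RES-A they were -0.38, -0.15 and -0.22. These values come from 1 thinning, with classes as coarse as 1 UMI of each gene makes them. Since cells with 10 or more members also occurred among those with neither message, a higher share of replicating cells and a higher level within a class cannot be told apart by this sum.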

How the data were processed

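The deposited values are UMI counts per gene and cell, which the authors made from droplet-based 3' libraries using Cell Ranger 3.0.2 with the GRCh38 reference supplied for it. Reads shared with near-identical copies are not counted, so levels of genes with copies are uncertain. Groups came from sample titles. Cells were kept by the limits the study used for each library (LNCaP 3000 to 7000 genes and 16000 to 50000 UMIs, others 1500 to 5000 genes and 5000 to 25000 UMIs, mitochondrial share under 15% in both LNCaP libraries, 17% in RES-A and 20% in RES-B). No doublet caller was run.

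Counts were summed per library over kept cells and scaled to CPM, an equal total for every library. Ratios have exact conditional binomial, levels exact Poisson and shares exact Clopper-Pearson 95% intervals, all for counting error only. With 1 library per group no test was made, and a member was counted as higher or lower past a log2 ratio of 0.5. Expressed genes had a mean of at least 10 CPM, and within a class of cells the same limit was applied to that class. Positions came from GENCODE 44 (33113 gene IDs found), and the neighbourhood of a member is the median of its 50 nearest expressed genes minus that of all. The members, role groups and lists were chosen with earlier results of these data known. All members are named, and those highest or lowest in their role group are given in full. The steps were tested on simulated data (Python 3.11.15, numpy 2.4.6, scipy 1.17.1, edgeR 4.0.16 for scaling factors). One marker of line identity is not reported here.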

Additional observations from a re-analysis of the deposited data

How the results depend on the processing

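No paired analysis was possible because each group is 1 library. The direction of every median over the 37 members held under other cell limits, without the 5% of cells with most UMIs, with TMM or median-of-ratios scaling, without mitochondrial genes in the total and with every cell weighted equally, and 0 members past a log2 ratio of 0.5 changed sign under these. TMM and median-of-ratios scaling moved the median of all expressed genes by up to 0.11. The counts in RES-B were the least stable. Against LNCaP, members higher were 5 under TMM and 5 under median-of-ratios scaling, and members lower were 5 under both and with every cell weighted equally, 1 with common cell limits and 1 without mitochondrial genes. Against RES-A, members higher were 0 and members lower 15 under TMM, median-of-ratios scaling and equal weights. With a limit of 0.25 in place of 0.5, 0 members were higher and 31 lower in LNCaP-ENZ48, and 27 higher and 3 lower in RES-A. In RES-B 16 were higher and 9 lower against LNCaP, and 2 higher and 21 lower against RES-A. With a limit of 1, 0 were higher and 0 lower in LNCaP-ENZ48, and 6 higher and 1 lower in RES-A. In RES-B 1 was higher and 0 lower against LNCaP, and 0 higher and 0 lower against RES-A. Restricted to members with at least 50 CPM, the medians were -0.23, 0.83 and 0.29 against LNCaP and -0.47 for RES-B against RES-A, with 1 lower in LNCaP-ENZ48, 2 higher and 0 lower in RES-A, 2 higher and 0 lower in RES-B, and 0 higher and 2 lower in RES-B against RES-A. With at least 10 CPM, a setting chosen after seeing the data, 0 were higher and 10 lower in LNCaP-ENZ48, and 14 higher and 1 lower in RES-A. In RES-B 9 were higher and 1 lower against LNCaP, and 1 higher and 10 lower against RES-A. These limits leave fewer genes to count, at 50 CPM only PCNA, TYMS, DUT and TK1. Shares of all expressed genes between libraries were taken only at a limit of 0.5 on CPM. The counts at other limits or scalings thus have no such share beside them and cannot be set against all genes.

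The share of cells with PCNA and TYMS messages depends on depth. For the LNCaP libraries (DMSO, then ENZ) and then RES-A and RES-B it was 37.2%, 14.6%, 28.4% and 19.5% without thinning, 1.40%, 1.18%, 3.90% and 2.34% at 2000 UMIs, and 0.898%, 0.857%, 2.76% and 2.22% with at least 2 UMIs of each gene. RES-A had the highest share in each thinned setting, although with at least 2 UMIs its interval overlapped that of RES-B (2.30 to 3.27 and 1.79 to 2.72). LNCaP-ENZ48 was no longer apart from LNCaP in either of the last 2 settings, and LNCaP and RES-B no longer overlapped with at least 2 UMIs (0.51 to 1.45 for LNCaP). At 2000 UMIs the median enrichment of the 35 members was 2.08 in LNCaP and 1.91 in RES-A, and without thinning it was 2.48 in LNCaP-ENZ48. Cells selected without thinning gave RES-A a median of 0.75 and RES-B 0.65 against LNCaP. The selected LNCaP cells are then a larger part of a deeper library. The 20 further thinnings were added after seeing that another seed gave a selected-cell median of -0.17 in LNCaP-ENZ48.

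With 1 library per group, differences between cultures, sorts or library preparations are not measured, and intervals state counting error alone. Members under 10 CPM have wide intervals. PCNA and TYMS detection selects cells by message, not by DNA content.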
